A study of Mus musculus with 2 samples.

Results

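The nuclear-encoded respiratory chain genes are the genes of the cell nucleus whose proteins build the 4 electron-transfer complexes and the ATP synthase of the inner mitochondrial membrane. They were chosen by name: every gene with a protein-coding transcript whose symbol begins with Nduf, Uqcr, Uqcc, Atp5 or Cox4 to Cox8, together with Sdha, Sdhb, Sdhc, Sdhd and Cyc1, and without symbols marked as pseudogenes. The rule gave 98 of the 55536 Ensembl genes in the gene table. By their known roles 86 are structural subunits, with 36 in complex I, 4 in complex II, 9 in complex III, 20 in complex IV and 17 in the ATP synthase (complex V). The other 12 are assembly factors, which help build a complex and are not part of the finished enzyme. Ndufa4 and Ndufa4l2 were placed with complex IV, where the Ndufa4 protein is known to sit despite its name.

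Complexes I and II take electrons from NADH and succinate, complex III passes them to cytochrome c, and complex IV hands them to oxygen. Complexes I, III and IV pump protons, and the ATP synthase uses the returning protons to make ATP. All of complex II and most subunits of the other enzymes are encoded in the nucleus, while a small set of core subunits is encoded in the mitochondrial genome. Neutrophils, short-lived phagocytes of the blood and tissues, are known to make most of their ATP by glycolysis and to hold few mitochondria.

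The neutrophils were primary cells taken from spleen, and their total RNA was sequenced with a directional kit. The donors were adult male B6CASTF1/J mice aged 65 days, an F1 cross with C57BL/6 on the maternal and CAST/EiJ on the paternal side. There is 1 group of 2 libraries, biological replicates 1 and 2, made from 300 ng of RNA each, and ERCC spike-in RNA was present in both. Separate animals are not shown, because a single donor identifier is given for both libraries. Every SD here therefore measures only the spread between these libraries, which may be technical, and every p-value covers counting error alone. No treatment, genotype or other cell type was sequenced, so no condition can be compared.

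Replicate 1 held 18387963 expected counts and replicate 2 held 18090108. All 12 neutrophil markers were present, with S100a9 highest and Cxcr2 lowest (114 and 174 TPM). Summed TPM of the markers of other cells was 4.49 in replicate 1 and 17.4 in replicate 2 for 5 B cell genes, and 2.92 and 8.50 for 5 erythroid genes. It was 17.65 and 14.01 for 5 platelet genes, 0.930 and 0.900 for 5 T cell genes, and 14.6 and 18.9 for 5 macrophage genes. In the macrophage list Adgre1 had 7.61 and 10.6 TPM and Vcam1 had 6.67 and 8.02 TPM, while C1qa, C1qb and C1qc were at or below 0.2 TPM. For 5 muscle genes the sum was 13.1 and 15.4 TPM, with Tnnt3 at 11.85 and 14.89 TPM and the other 4 at means below 1 TPM. Markers of dividing cells were high, and the median of 5 genes was 26.2 and 31.6 TPM. The part of these cells in the levels below was not tested, and in bulk RNA fewer cells of a type and less RNA per cell cannot be told apart.

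Respiratory chain messenger RNA was present in these neutrophils at levels above those of most protein-coding genes. The 98 genes had median levels of 21.6 and 28.1 TPM in replicates 1 and 2, against 4.03 and 4.87 TPM over the 14633 protein-coding genes with any reads. TPM is a length-scaled share of a library, so levels can be compared between genes. Levels are from the gene table, which has the column layout of the program RSEM, unless they are said to be by kallisto, the layout of a separate transcript table. Of the 98 genes, 82 lay above the median of expressed protein-coding genes, 75 had a mean of at least 10 TPM and 10 had a mean below 1 TPM. Together they took 0.763% and 0.793% of the protein-coding TPM, and 0.219% and 0.260% of all expected counts. Their order was alike in both libraries, with a Spearman correlation of 0.966 across the 88 genes at 1 TPM or more, where genes are not independent replicates. The genes lie on 19 chromosomes, with 3 on the X chromosome and at most 9 on any other.

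The TPM was higher in replicate 2 for 87 of the 98 genes. A large part of each library was 7SL RNA, the RNA of the signal recognition particle, which took 43.8% of TPM in replicate 1 and 31.6% in replicate 2. TPM values of all other genes move with that share.

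**Figure D1:**
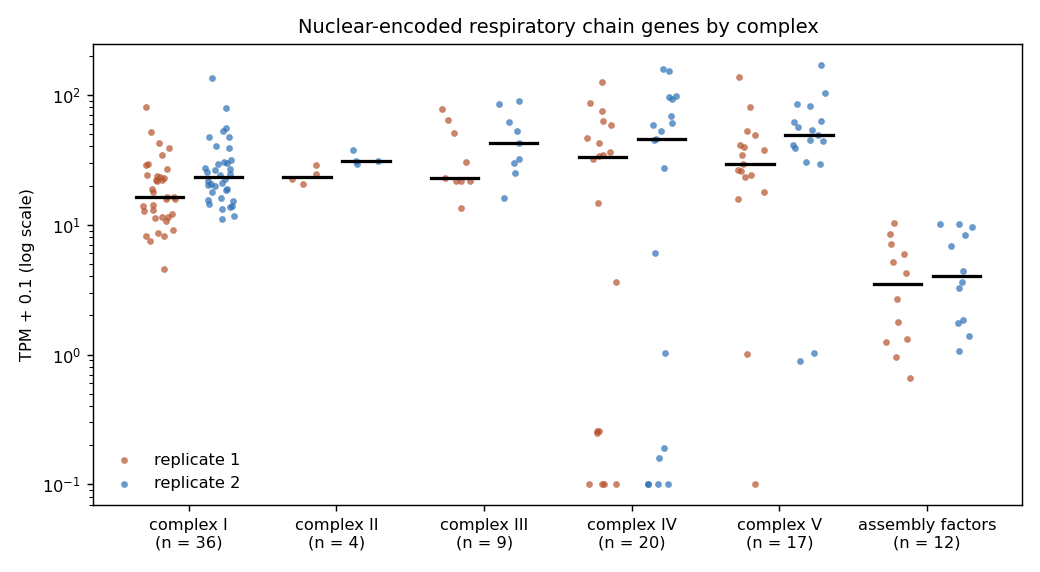
Each point is 1 gene, with deposited TPM plus 0.1 on a log axis, replicate 1 at the left and replicate 2 at the right of each role, and bars at the medians. The structural groups have medians of 16.3 to 33.0 TPM in replicate 1 and of 23.2 to 48.5 TPM in replicate 2, and assembly factors lie lower, at 3.37 and 3.91 TPM.

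Complex I, the NADH dehydrogenase and the entry point for most electrons, had all 36 of its nuclear subunits above 1 TPM. Their median was 16.3 and 23.2 TPM, or 19.7 ± 4.93 (SD, n = 2). The highest was Ndufa3, a small accessory subunit (chr7:3617373-3620327, plus strand), at 80.6 TPM in replicate 1 and 133 TPM in replicate 2. Ndufb8, an accessory subunit of the membrane arm, followed at 52.0 and 78.4 TPM. The lowest were Ndufb4 (chr16:37647170-37654453, minus strand) at 4.43 and 11.6 TPM, and Ndufa12 at 7.41 and 11.1 TPM, both accessory subunits. The range from the highest to the lowest was 18.2-fold in replicate 1 and 12.1-fold in replicate 2.

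The 7 core subunits of complex I that are encoded in the nucleus include those that carry the flavin and the iron-sulfur clusters. Their median was 17.7 and 20.9 TPM, against 16.1 and 25.2 TPM for the 29 accessory subunits. The difference was -0.07 ± 0.28 on the log2 scale (SD, n = 2), which is within the spread between the libraries. Ndufs8, an iron-sulfur subunit, was the lowest core subunit by mean at 14.1 and 20.9 TPM.

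Complex II, succinate dehydrogenase, also serves the citric acid cycle and has no mitochondrial-encoded subunit. Its 4 genes stood close together, within 1.40-fold in replicate 1 and 1.27-fold in replicate 2. The membrane anchors Sdhd and Sdhc had 28.6 and 24.3 TPM in replicate 1, and 37.2 and 30.9 TPM in replicate 2. The flavoprotein gene Sdha had 22.4 and 29.3 TPM in replicates 1 and 2, and the iron-sulfur gene Sdhb had 20.5 and 30.7 TPM. The Sdha to Sdhb ratio was 1.10 and 0.956. No other complex had so narrow a range by the deposited TPM, although a set of 4 genes can also span less than a larger set.

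Complex III, the cytochrome bc1 complex, had a median of 22.7 and 42.5 TPM over 9 genes. Uqcrh, the hinge protein that contacts cytochrome c1, was highest at 77.4 TPM in replicate 1 and 84.3 TPM in replicate 2. Uqcrq, a small subunit, had 63.4 and 89.2 TPM. Cyc1, which encodes cytochrome c1 itself, was lowest at 13.3 and 15.9 TPM, and the core protein gene Uqcrc2 was next at 21.7 and 24.7 TPM. Uqcrh exceeded Cyc1 by 5.84-fold and 5.30-fold, although their proteins occur in equal numbers in the complex. The other core protein gene, Uqcrc1, exceeded Uqcrc2 by 2.34-fold and 2.49-fold. These ratios were smaller by kallisto, the other quantifier, at 3.82 and 4.07 for Uqcrh over Cyc1 and 1.51 and 1.805 for Uqcrc1 over Uqcrc2. In coding transcripts alone, by RSEM, Uqcrh had 32.91 and 45.35 TPM and Cyc1 had 9.97 and 11.64 TPM, which also makes their ratio smaller.

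Complex IV, cytochrome c oxidase, held the widest range when forms that other tissues use were counted. Over its 12 widely used forms the range was 8.64-fold in replicate 1 and 5.77-fold in replicate 2. That is narrower than the 18.2-fold and 12.1-fold of complex I. Over all 20 genes the median was 33.0 and 45.3 TPM, and over the 12 widely used forms it was 44.4 and 64.5 TPM. Cox4i1, the largest nuclear subunit (chr8:120668222-120674207, plus strand), was highest at 126 and 157 TPM. Cox8a, a small subunit (chr19:7215153-7217616, minus strand), had 86.6 and 152 TPM. Cox7b2, Cox8b and Cox8c were at 0 counts in both libraries.

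The ATP synthase had a median of 29.1 and 48.5 TPM over 17 genes. Atp5b, the catalytic beta subunit (chr10:128083273-128090391, plus strand), was the highest of all 98 genes by mean, at 138 TPM in replicate 1 and 170 TPM in replicate 2. Atp5a1, the alpha subunit, followed at 80.4 and 104 TPM. Alpha and beta are each present in several copies around a single central stalk, whose gamma subunit is encoded by Atp5c1 at 29.1 and 43.8 TPM. Beta exceeded gamma by 4.72-fold and 3.87-fold, and alpha exceeded gamma by 2.76-fold and 2.37-fold. Beta exceeded alpha by 1.71-fold and 1.63-fold, although their proteins are present in equal numbers. The lowest were Atp5g2, a c subunit gene, at 0.910 and 0.790 TPM and another gene also named Atp5o at 0 and 0.930 TPM. This other Atp5o gene (chr16:91684398-91926982, minus strand) shares 94% of its 31-base words with other genes and overlaps the main Atp5o gene and Donson on the same strand, so its level is uncertain.

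Assembly factors stood lower than the subunits they help to join. Their median was 3.37 and 3.91 TPM, and the structural subunits exceeded them by 2.84 ± 0.13 on the log2 scale of TPM + 0.1 (SD, n = 2). None of the 12 assembly factors lay above the median of the structural subunits. The highest was Ndufaf7, a methyltransferase of complex I assembly, at 10.2 and 9.97 TPM, followed by Ndufaf3 at 8.44 and 9.45 TPM. The lowest were Ndufaf2 at 0.560 and 0.970 TPM and Ndufaf4 at 0.860 and 1.64 TPM. Within complex I the 36 subunits exceeded the 8 Ndufaf genes by 2.94 ± 0.25 on the log2 scale. Within complex III the 9 subunits exceeded the 3 Uqcc genes by 2.28 ± 0.49. Each of these differences was larger than its spread between the libraries.

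Mitochondrial ribosomal proteins, which are also nuclear-encoded and imported, gave a comparison with another mitochondrial machine. Their 78 Mrpl and Mrps genes had a median of 5.87 and 8.39 TPM. The structural respiratory chain subunits exceeded them by 1.88 ± 0.06 on the log2 scale, and 2 of the 78 lay above the median of the structural subunits.

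Several complex IV subunits have an alternative paralog that other tissues use in place of the widely used form. In all 7 pairs examined, and for Cox8c, a further form set beside Cox8a, the widely used form was at least 10-fold higher in both libraries. The ratios of TPM below carry a 95% exact Poisson interval on the counts of the alternative form, or a lower bound where that form had 0 counts, since 0 counts allow up to 3 in a library. Intervals and bounds cover counting error only.

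The muscle forms were almost undetected. Cox8a had 850 and 1267 counts, while Cox8b, the heart and skeletal muscle form in mice, had 0 and 0, so Cox8a was at least 164-fold higher in replicate 1 and at least 244-fold higher in replicate 2. Cox6a1 had 606 and 840 counts, at 58.9 and 95.9 TPM, against 2 counts in replicate 1 and 0 in replicate 2 for Cox6a2. The Cox6a1 to Cox6a2 ratio was 368 in replicate 1 (103 to 3074) and at least 344 in replicate 2. Cox7a2 had 32.0 and 52.4 TPM, against 0.160 and 0.920 TPM for Cox7a1 from 1 and 5 counts. The Cox7a2 to Cox7a1 ratio was 200.1 (36.7 to 8081) in replicate 1 and 57.0 (24.4 to 176) in replicate 2, and these intervals overlap.

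Forms known from lung and low oxygen were as scarce. Cox4i1 had 1706 and 1773 counts, against 2 and 1 for Cox4i2, and the Cox4i1 to Cox4i2 ratio was 842 (239 to 7129) in replicate 1 and 1743 (331 to 72829) in replicate 2. Ndufa4 had 301 and 420 counts, or 34.1 and 58.4 TPM. Ndufa4l2, a gene that hypoxia-inducible factor is known to switch on, had 0 and 1 counts. Ndufa4 was at least 166-fold higher in replicate 1 and 974-fold higher in replicate 2 (162 to 35744). Hif1a itself, a subunit of that factor, had 43.5 TPM in replicate 1 and 43.1 TPM in replicate 2.

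A testis form was the exception in its level. Cox6b1 had 75.3 TPM in replicate 1 and 97.2 TPM in replicate 2. Cox6b2 (chr7:4751792-4753094, minus strand) had 3.55 and 5.91 TPM, from 32 and 39 counts, and was the only alternative form above 1 TPM in either library by the gene table. The Cox6b1 to Cox6b2 ratio was 21.2 (14.999 to 30.96) in replicate 1 and 16.4 (12.0 to 23.1) in replicate 2. None of the 31-base words of Cox6b2 occur in transcripts of other genes. The other testis forms Cox7b2 and Cox8c had 0 counts in both libraries. Cox7b, at 14.6 and 27.2 TPM, was at least 47.0-fold and 74.4-fold higher than Cox7b2, and Cox8a was at least 225-fold and 336-fold higher than Cox8c.

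**Figure D2:**
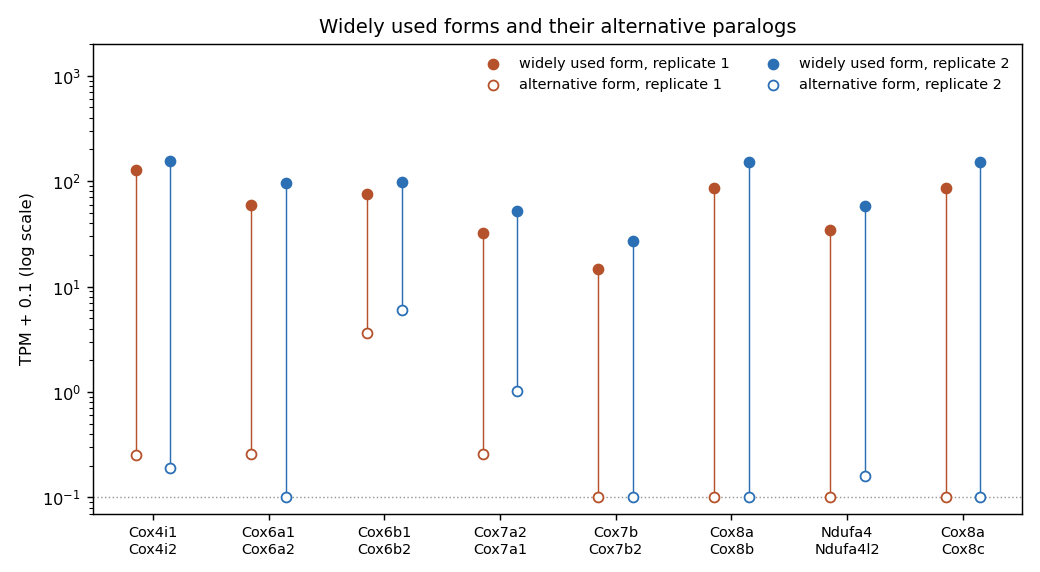
For each pair, named with the widely used form above and the alternative below, filled points are the widely used form and open points the alternative, as TPM plus 0.1 on a log axis, with replicate 1 left of replicate 2. The dotted line marks 0 TPM, and Cox6b2 is the only open point above 1 TPM, at 3.55 and 5.91 TPM.

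The start regions of these paralogs also differ in sequence. RefSeq promoter sequences on GRCm38.p6 (300 bases, from 250 before to 50 after the annotated start) matched 77 of the 97 symbols. The sequences of a widely used form and its muscle form are printed for 2 pairs as examples, chosen with their sequences known, and capitals mark CG, the dinucleotide that is dense in promoters of widely expressed genes. The Cox8a region (chr19:7217567-7217866, minus strand) holds 19 CG and the Cox8b region (chr7:140900397-140900696, minus strand) holds 2. The Cox7a2 region (chr9:79759804-79760103, minus strand) holds 20 and the Cox7a1 region (chr7:30183921-30184220, plus strand) holds 7.
Cox8a: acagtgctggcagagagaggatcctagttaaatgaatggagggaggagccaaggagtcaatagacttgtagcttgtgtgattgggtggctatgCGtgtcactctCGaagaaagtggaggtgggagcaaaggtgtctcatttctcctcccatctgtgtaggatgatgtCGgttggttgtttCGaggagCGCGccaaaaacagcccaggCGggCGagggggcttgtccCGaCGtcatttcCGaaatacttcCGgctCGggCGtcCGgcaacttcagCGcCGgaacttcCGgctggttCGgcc
Cox8b: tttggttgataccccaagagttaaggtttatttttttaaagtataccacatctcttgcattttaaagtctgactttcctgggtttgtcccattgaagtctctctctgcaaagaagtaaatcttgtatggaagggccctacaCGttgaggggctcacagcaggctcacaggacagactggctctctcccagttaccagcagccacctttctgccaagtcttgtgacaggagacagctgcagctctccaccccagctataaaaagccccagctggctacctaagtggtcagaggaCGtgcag
Cox7a2: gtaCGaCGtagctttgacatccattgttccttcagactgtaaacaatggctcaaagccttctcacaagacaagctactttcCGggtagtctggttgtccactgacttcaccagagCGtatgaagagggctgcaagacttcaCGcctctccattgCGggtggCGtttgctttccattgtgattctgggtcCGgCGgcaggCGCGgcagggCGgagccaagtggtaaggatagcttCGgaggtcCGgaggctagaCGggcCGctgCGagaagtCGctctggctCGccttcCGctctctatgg
Cox7a1: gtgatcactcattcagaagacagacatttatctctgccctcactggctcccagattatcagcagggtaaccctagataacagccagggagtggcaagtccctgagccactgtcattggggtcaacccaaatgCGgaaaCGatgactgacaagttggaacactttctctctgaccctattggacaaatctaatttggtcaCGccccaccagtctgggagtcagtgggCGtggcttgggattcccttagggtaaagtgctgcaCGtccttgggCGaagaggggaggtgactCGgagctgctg

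Across the matched genes the median count of CG was 19 in the 63 widely used structural genes and 8.5 in 4 alternative paralogs, against 14 over all protein-coding genes of the table and 22 over those with a mean of at least 10 TPM. Cox7b and Cox7b2 went against this order, with 5 CG in the Cox7b region and 10 in the Cox7b2 region, and Cox6b1 and Cox6b2 had 17 and 10. These counts describe the reference sequence, and methylation was not measured.

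Motifs named for factors known to act on respiratory chain genes were searched on both strands of the same regions. A match is a description of letters and not a binding site. The NRF1 motif, GCGC then AT then GCGC, was in 9.09% of the 77 genes, against 1.07% of all genes of the table and 2.37% of protein-coding genes with a mean of at least 10 TPM. The 7 genes were Atp5g2, Atp5k, Cox6a1, Ndufa11, Ndufaf4, Ndufaf5 and Uqcrc1. AAGATGGCG, known for YY1, was in 10.4% of the 77, against 1.64% of all and 4.46% of those at 10 TPM or more. CCGGAAG, the ETS motif bound by GABP, was in 23.4% of the 77, against 9.93% of all and 24.1% of those at 10 TPM or more, so its share was near that of other genes at this level. TATAAA was in 9.09% of the 77, against 15.7% of all and 8.55% of those at 10 TPM or more. The motifs have different letters and may overlap.

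Atp5j, which encodes coupling factor F6 of the ATP synthase stalk, carries both the YY1 and the ETS motif in 1 of its promoter regions (chr16:84834927-84835226, minus strand). It is shown because Atp5j and Ndufaf8 were the only genes with both motifs in a region, and capitals mark AAGATGGCG and CCGGAAG.
Atp5j: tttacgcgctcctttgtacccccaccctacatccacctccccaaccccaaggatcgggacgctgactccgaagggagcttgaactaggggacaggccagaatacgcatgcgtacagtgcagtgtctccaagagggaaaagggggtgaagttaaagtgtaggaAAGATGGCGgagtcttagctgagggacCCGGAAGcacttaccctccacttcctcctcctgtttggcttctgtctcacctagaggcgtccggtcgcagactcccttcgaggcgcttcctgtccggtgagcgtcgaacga

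Gabpa, which encodes the DNA-binding subunit of GABP, had 10.6 and 14.9 TPM, and Atp5j had 26.1 TPM in replicate 1 and 48.5 TPM in replicate 2. Their exons overlap over 397 bases on opposite strands. Whether the counting used strand is not given in the sources used here, so reads from the overlap may not be told apart. Exons of 29 of the 98 genes overlap an exon of another gene on the opposite strand, and the share over all protein-coding genes was not counted.

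Many of the genes start close to another gene that is read the other way. A protein-coding gene on the opposite strand began within 1000 bases upstream for 23 of the 98 (23.5%), against 6.76% of all 22028 protein-coding genes and 10% of the 5283 with a mean of at least 10 TPM. Ndufa7, an accessory subunit of complex I, begins 10 bases from Rps28, a ribosomal protein gene. Ndufa7 had 23.4 and 52.4 TPM, and Rps28 had 225 and 365 TPM. Sdhd and Timm8b, a chaperone of mitochondrial import, begin 98 bases apart, with 28.6 and 37.2 TPM for Sdhd and 17.88 and 20.99 TPM for Timm8b.

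Subunits encoded in the mitochondrial genome were far more abundant than their nuclear partners. The 82 nuclear structural subunits of complexes I, III, IV and V stood at a median of 22.3 and 29.995 TPM in replicates 1 and 2. The 13 mitochondrial messenger RNAs had a median of 307 and 406 TPM. Nuclear minus mitochondrial was -3.77 ± 0.01 on the log2 scale of TPM + 0.1 (SD, n = 2), and -3.34 ± 0.68 with the kallisto-layout values. The mitochondrial median fell on mt-Nd4 in replicate 1 and on mt-Nd1 in replicate 2, so the SD of 0.01 does not show a stable gap.

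The gap held in each complex by the deposited TPM, and in each it was narrower in replicate 2, as in complex I with -3.67 in replicate 1 and -3.20 in replicate 2. The mean gap and its SD are given for each complex. The gap was -3.43 ± 0.34 in complex I (36 nuclear and 7 mitochondrial genes), -3.97 ± 0.68 in complex III (9 and 1), -4.80 ± 0.37 in complex IV (20 and 3) and -3.61 ± 0.27 in complex V (17 and 2). Complex IV counts 8 alternative forms among its 20 nuclear genes, 7 of them below 1 TPM, which lower its nuclear median and widen its gap. Its 12 widely used forms had medians of 44.4 and 64.5 TPM, against 1105 and 1054 TPM for its mitochondrial genes. By kallisto the gap in complex IV was -4.03 ± 0.15. By kallisto the gap in complex V was 1.67 ± 2.87, which is within its spread, and mt-Atp8 had 4.20 and 0 TPM there and 650 and 493 TPM by RSEM. The highest mitochondrial gene was mt-Co2, a catalytic subunit of complex IV, at 1289 and 1054 TPM, and the lowest was mt-Nd6 at 27.7 and 21.5 TPM. By RSEM only mt-Nd6 lay within the range of the nuclear subunits of complex I in both libraries.

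**Figure D3:**
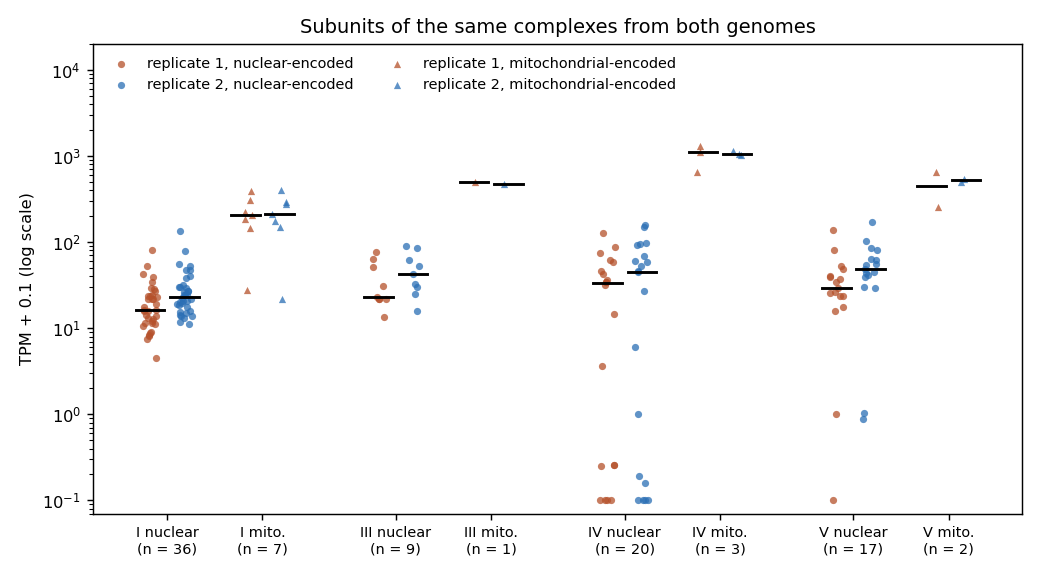
TPM plus 0.1 on a log axis for nuclear subunits (circles) and mitochondrial-genome messenger RNAs (triangles) of the same complexes, with replicate 1 left of replicate 2 and bars at the medians. The medians of the mitochondrial genes lie above those of the nuclear genes in every complex, with nuclear genes of complex I at 16.3 TPM and mitochondrial ones at 208 TPM in replicate 1.

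Between the libraries, respiratory chain genes were mostly lower in replicate 1 than in replicate 2. Rounded counts were compared with a two-sided exact binomial test at TMM library sizes, and a gene was called at a Benjamini-Hochberg adjusted p under 0.05 over 15118 genes. It compares these libraries and not conditions. Of the 90 genes with enough counts, 3 were called higher in replicate 1, where 15% of all tested genes were. In replicate 2, 44 of the 90 (48.9%) were called higher, where 17.0% of all tested genes were. The median log2 ratio of replicate 1 over replicate 2 was -0.29 over the 90 genes and -0.00 over all tested genes. With at least 2-fold required, 0 genes were higher in replicate 1 (3.02% of all tested), the largest ratio there being 0.86, and 1 was higher in replicate 2 (2.86% of all tested). In either direction 5.88% of all tested genes passed, and 32.1% were called without the fold limit.

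That gene was Ndufb4, with 44.6 and 95.3 expected counts and a log2 ratio of -1.05 (exact binomial test, adjusted p 0.000199). Ndufb4 shares 38.3% of its 31-base words with other genes and does not pass 2-fold with kallisto-layout counts. The next largest were Ndufa7, with 212 and 422 counts and a ratio of -0.97 (adjusted p 3.24e-15), and Ndufa11, an accessory subunit of complex I, with 74 and 140 counts and a ratio of -0.90 (adjusted p 7.64e-05). Ndufa7 and Ndufa11 are members of the set. They were named after their values were seen, outside the rule for which genes to name singly.

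By complex, the genes called higher in replicate 2, beside 17.0% of all tested genes, were 14 of 16 tested genes of the ATP synthase, 8 of 13 of complex IV, 5 of 9 of complex III, 2 of 4 of complex II and 15 of 36 of complex I. None of the 12 assembly factors was called higher in replicate 2, although 2 were at an unadjusted p under 0.05. Their median log2 ratio was -0.29, close to the -0.28 of the 78 tested structural subunits. Their counts were low, from 7 for Ndufaf2 to 183 for Ndufaf7 in replicate 1, and low counts give fewer calls at the same ratio. Whether the complexes and assembly factors differ from each other in their calls was not tested. Among the widely used subunits, Atp5b had 3596 and 4071 counts and a ratio of -0.16, Cox8a had 850 and 1267 and a ratio of -0.56, and Uqcrh had 696 and 666 and a ratio of 0.08. Atp5b and Cox8a were called, and Uqcrh was not.

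The 3 genes called higher in replicate 1 belong to complex I or its assembly. Ndufv1, the flavin-carrying subunit, had 464 and 344 counts (0.45 on the log2 scale, exact binomial test with Benjamini-Hochberg adjusted p 8.92e-05). Ndufaf7 had 183 and 139 counts (ratio 0.41, adjusted p 0.0394) and lost its call with total counts, DESeq2-type size factors, ERCC scaling, no count filter and kallisto-layout counts. With ERCC scaling Ndufv1 lost its call too.

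Transcript length moved with the library ratio. The 98 genes are short, with a median length of 685 nt against 2147 nt for expressed protein-coding genes, and 74 of them are under 1000 nt. The median ratio of the respiratory chain genes was -0.44 under 500 nt (12 genes), -0.33 from 500 to 1000 nt (54), -0.15 from 1000 to 2000 nt (21) and -0.20 above that (3). All tested protein-coding genes had -0.41, -0.22, -0.06 and 0.02 in the same classes. In the class from 500 to 1000 nt, 48.1% of the respiratory chain genes and 32.4% of protein-coding genes were called higher in replicate 2. Across the 90 genes length and ratio had a Spearman correlation of 0.47. The part of length in the difference was not tested beyond these classes.

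**Figure D4:**
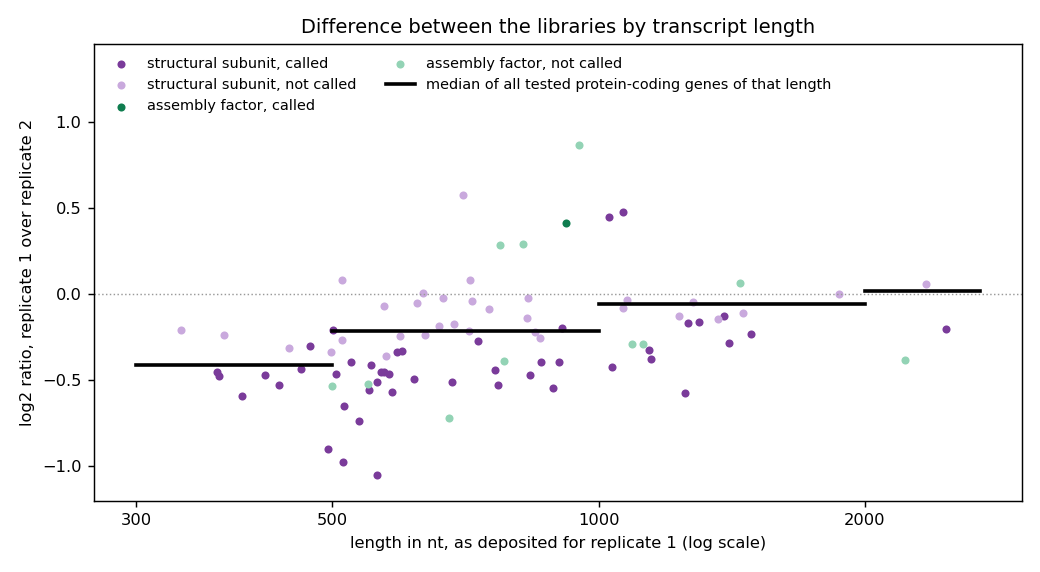
Log2 ratio of replicate 1 over replicate 2 against transcript length on a log axis, with 1 point per tested gene and black bars at the median of all tested protein-coding genes in each length class. Points below 0 are higher in replicate 2, as are 78 of the 90, and the black bars rise with length, with medians of -0.41 under 500 nt and 0.02 above 2000 nt.

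The cell markers moved as well. All 12 neutrophil markers were called higher in replicate 2 (median ratio -0.48), as were 4 of 5 B cell, 3 of 5 erythroid and 3 of 5 dividing-cell markers. Of 5 platelet markers 3 were called higher in replicate 1 and 1 in replicate 2. Their part in the respiratory chain ratios was not tested. Mitochondrial-encoded subunits went the other way from the nuclear ones, with 10 of 13 called higher in replicate 1 (median ratio 0.30) and 3 in replicate 2, namely mt-Nd4l, mt-Co3 and mt-Atp6. Those 3 genes, mt-Co1 and mt-Co2 had fractional counts, so some of their reads were divided between genes.

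The number of calls depends on the scaling. ERCC spike-in RNA took 0.423% of counts in replicate 1 and 0.260% in replicate 2, and scaling by it moved the median of all genes by -0.74. With it, 87 of the 90 genes were called higher in replicate 2 and 0 in replicate 1. Over all 15118 tested genes 11163 were called higher in replicate 2 and 187 in replicate 1, so most genes moved the same way. Relative to all genes the respiratory chain median stayed at -0.29 under total counts, TMM, DESeq2-type and ERCC scaling, which shift every gene alike.

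The quantifiers gave like levels for most of the genes, with Atp5g2 as the exception. Of the 90 genes with a mean of at least 1 TPM by either quantifier, 1 differed over 2-fold in both libraries. Of all genes compared 13.2% did, 9.95% higher by kallisto and 3.2% higher by RSEM, and of protein-coding genes 4.19%. That gene was Atp5g2 (chr15:102662864-102672352, minus strand), which with Atp5g1 and Atp5g3 encodes the same mature c subunit of the ATP synthase rotor. Atp5g2 had 38.4 TPM in replicate 1 and 53.0 TPM in replicate 2 by kallisto, against 0.910 and 0.790 TPM by RSEM.

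Its pseudogene Gm10175, which holds 37.5% of the 31-base words of Atp5g2, showed the opposite. By kallisto Gm10175 had 0 and 13.3 TPM, and RSEM gave it 42.9 and 65.7 TPM. The sum of both genes was 38.4 and 66.3 TPM by kallisto and 43.8 and 66.5 TPM by RSEM. Which of them the reads came from was not tested. The shares of the c subunit genes follow from this. By kallisto Atp5g2 held 43.3% and 41.5% of their summed TPM, Atp5g3 38.0% and 37.9%, and Atp5g1 18.8% and 20.6%. By RSEM Atp5g3 held 66.9% and 63.4%, Atp5g1 31.4% and 35.7%, and Atp5g2 1.62% and 0.935%. The values of Atp5g3 were 33.7 and 48.5 TPM by kallisto and 37.5 and 53.6 TPM by RSEM. Those of Atp5g1 were 16.7 and 26.4 TPM by kallisto, while RSEM gave 17.6 and 30.2 TPM.

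**Figure D5:**
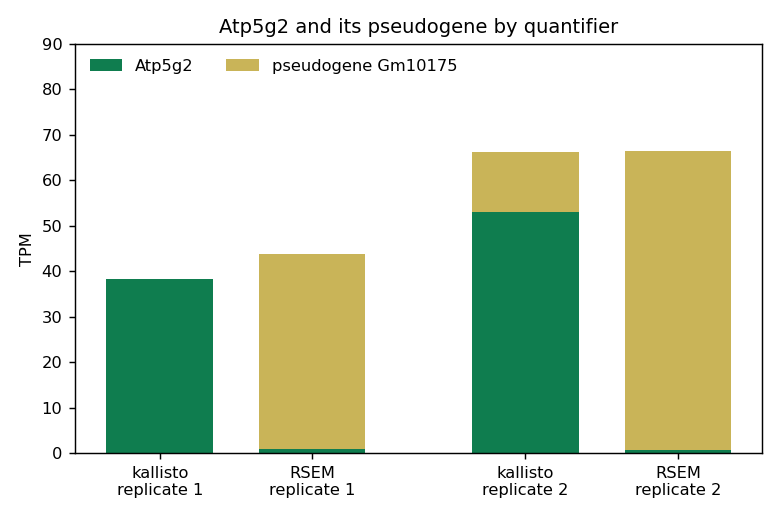
Stacked bars of TPM for Atp5g2 (green) and its pseudogene Gm10175 (yellow) by kallisto and RSEM in each library. The totals are 38.4 and 43.8 TPM in replicate 1 and 66.3 and 66.5 TPM in replicate 2, while the Atp5g2 part is 38.4 TPM by kallisto and 0.910 TPM by RSEM in replicate 1.

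At least 1 word of 31 bases is shared with another gene by 55 of the 98 genes, and at least 20% of the words by 16 of them. The share over all genes was not counted. Not every such gene is a pseudogene copy, since Atp5g1 shares words with 1717 genes and Ndufaf7 with 1035, and Donson is protein-coding. Several processed pseudogenes among them had levels of their own. Atp5l encodes the g subunit of the ATP synthase. By kallisto it had 56.7 and 89.4 TPM and its pseudogene Gm10221 had 37.7 and 0 TPM. RSEM gave 49.1 and 81.7 TPM to Atp5l, and 67.1 and 122 TPM to Gm10221. Ndufb4 had 11.3 and 23.0 TPM by kallisto, while RSEM gave 4.43 and 11.6 TPM. Its copy Ndufb4c had 0 and 0 TPM by kallisto, while RSEM gave 13.0 and 22.4 TPM. Atp5h, the d subunit, had 60.0 and 115 TPM by kallisto and 52.7 and 84.5 TPM by RSEM, with Gm10250 at 0 and 0 by kallisto and 22.3 and 16.6 TPM by RSEM. Cox7a2l, which is known for linking complexes III and IV, had 41.4 and 55.3 TPM by kallisto and 36.2 and 45.6 TPM by RSEM. Its pseudogene Gm6969 had 26.8 and 49.5 TPM by kallisto and 26.0 and 46.3 TPM by RSEM. The levels of these genes are therefore uncertain.

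Most respiratory chain RNA was assigned to protein-coding transcripts. Over the 88 genes with a mean of at least 1 TPM, the median coding share was 88.4% in replicate 1 and 84.6% in replicate 2 by kallisto, and 87.7% and 91.6% by RSEM. In 35 genes the share was over 90% in both libraries by both quantifiers. In 9 genes it was below 50% throughout, namely Ndufa3, Ndufa10, Ndufab1, Ndufb4, Ndufs3, Ndufs4, Atp5j, Ndufaf4 and Ndufaf7. Coding shares were not counted over all protein-coding genes, so a trait of these genes is not shown.

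Ndufa3 stands out because it led complex I. Its coding transcripts held 1.62% and 4.36% of its TPM by kallisto and 6.05% and 8.81% by RSEM. Ndufa3-204, a transcript of 343 nt annotated for nonsense-mediated decay, held 90.7% and 76.0% by kallisto and 88.5% and 85.3% by RSEM. For Atp5j the retained-intron transcript Atp5j-208 (526 nt) held 41.4% and 59.2% by kallisto and 55.4% and 76.7% by RSEM. For Ndufs4, an accessory subunit of complex I, the decay transcript Ndufs4-204 (686 nt) held 50.8% and 64.3% by kallisto and 39.4% and 39.7% by RSEM. Such short annotated transcripts overlap the coding ones, and TPM divides by length, so these shares are estimates.

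Cox7b, a complex IV subunit on the X chromosome, was split by quantifier. The retained-intron transcript Cox7b-203 (526 nt) held 93.9% and 98.5% of its TPM by kallisto and 24.0% and 35.0% by RSEM. The coding Cox7b-201 (1001 nt) held 76.0% and 65.0% by RSEM. The quantifiers thus named different leading isoforms. With coding transcripts alone, an alternative chosen after seeing the data, the median of complex IV was 26.5 ± 0.06 TPM, against 39.1 ± 8.72 TPM over all transcripts (SD, n = 2).

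The rest of the pathway was read from lists of other genes. The 21 complex IV assembly factors had a median of 3.91 and 6.10 TPM, near that of the assembly factors above. Pet100, a chaperone of complex IV, was highest at 38.6 and 54.6 TPM, and Pet117 was lowest by mean at 1.52 and 1.28 TPM. Of the 21, 0 were called higher in replicate 1, with 0 at an unadjusted p under 0.05, and 3 (14.3%) in replicate 2, near the 17.0% of all tested genes. The 18 other assembly factors had a median of 2.31 and 2.63 TPM, with Sdhaf2 of complex II highest at 11.87 and 14.02 TPM and Sdhaf3 lowest at 0.07 and 0.04 TPM. Of 17 tested, 2 were called higher in replicate 1 and 0 in replicate 2, against 15% and 17.0% of all tested genes, with 4 and 0 at an unadjusted p under 0.05.

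Among 13 carriers and exchange proteins, Ucp2, an uncoupling-protein relative of the inner membrane, was highest at 417 and 533 TPM, above every nuclear subunit. Cyct, the testis cytochrome c, had 0 counts, while the somatic Cycs was given 9.81 and 16.6 TPM by kallisto, and RSEM gave it 3.68 and 6.32 TPM. Of 9 tested carriers, 1 was called higher in replicate 1 and 3 in replicate 2, where 15% and 17.0% of all tested genes were. Among 14 regulators Hif1a was highest and Ppargc1a, a coactivator that drives mitochondrial biogenesis in muscle and brown fat, was lowest at 0 and 0.05 TPM. The factors whose motifs were searched were all present, with 16.1 and 21.7 TPM for Nrf1, and 18.5 and 26.5 TPM for Yy1. Of 13 tested regulators, 4 were called higher in replicate 1 and 0 in replicate 2, again beside 15% and 17.0% of all tested genes, with 4 and 2 at an unadjusted p under 0.05.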

How the data were processed

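Each library came with a gene table and 2 transcript tables. Expected counts and TPM of the gene table and of 1 transcript table have the column layout of RSEM and were made by the authors from alignments to the mm10 transcriptome (annotation GENCODE M21), per the notes deposited with the files. The other transcript table has the layout of kallisto and holds estimated counts and TPM that the authors derived from the reads with the same annotation. Programs, aligner and filters: not given in the sources used here. The deposited TPM covers all entries, spike-ins included. The quantifications are called RSEM and kallisto for their layouts.

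Levels are the deposited RSEM TPM, and kallisto values were summed per gene. Expected counts were rounded and compared with an exact two-sided binomial test (scipy 1.17.1) given TMM sizes (edgeR 4.0.16, R 4.3.3), on genes whose counts summed to at least 10 over the libraries, with Benjamini-Hochberg adjustment at 0.05 over all tested genes; log2 ratios add 0.5 to each count. edgeR's quasi-likelihood test needs replicates in each group and could not be run for 1 library against 1. The calculation was tested on simulated data with counting error only. That simulation cannot show how many calls come from further variation between the libraries. The libraries varied more than counting error, with a common biological coefficient of variation of 0.164 over 13089 genes and a chi-square of 47.2 per degree of freedom, so the calls number more than a replicated test would give. Shared sequence was counted as 31-base words of GENCODE M21 transcripts. Promoter sequences came from a RefSeq table on GRCm38.p6, the same assembly as mm10.

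Members and lists were chosen with earlier results of these data known. Named genes are the 2 highest and 2 lowest of each complex and of the assembly factors by mean TPM, all paralog pairs, members called and 2-fold between the libraries, members apart between quantifiers, the Atp5g genes, and the highest and lowest of each other list; further genes were named after their values were seen. Single values of some genes are not reported here. Alternatives were another quantifier, other scalings, pseudocounts, filters and leaving out each library.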

Additional observations from a re-analysis of the deposited data

How the results depend on the processing

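The 7 paralog pairs stayed at least 10-fold apart, in the same order, by kallisto, with a pseudocount of 1 and in each library alone. The mean of nuclear minus mitochondrial within complex V was 1.67 ± 2.87 by kallisto, against -3.61 ± 0.27 by RSEM. The kallisto mean is within its spread, so a change of sign is not shown. It rests on 2 mitochondrial genes, mt-Atp8 at 4.20 and 0 TPM and mt-Atp6 at 436 and 208 TPM by kallisto. TPM rescaled to protein-coding genes gave a median of 67.7 ± 1.49 for structural subunits (SD, n = 2). For complexes I to V the rescaled medians were 50.3 ± 1.16, 69.5 ± 2.42, 81.3 ± 17.3, 100.07 ± 0.48 and 97.8 ± 12.8. With members at 1 TPM or more, complex IV stood at 51.6 TPM, structural minus assembly at 2.67 and nuclear minus mitochondrial at -3.55. A pseudocount of 1 gave 2.56 and -3.72 for those differences, and kallisto gave -3.34 for nuclear minus mitochondrial. Coding transcripts alone, chosen after seeing the data, gave 14 TPM for complex I, 26.5 TPM for complex IV and 3.38 for structural minus assembly. With ERCC scaling 0 members were higher in replicate 1 and 87 in replicate 2, where 187 and 11163 of all 15118 tested genes were. Of the 87 members 49 were at least 2-fold, a count that was not made over all genes with this scaling. That 2-fold count was 2 with total counts (Ndufa7 and Ndufb4) and 0 with kallisto counts, where other calls did not move by over 1.5 times. At 1.5-fold, 4 members were apart between quantifiers (Atp5g2, Ndufb4, Cox7c and Atp5e), and in a single library 2 to 3 were, with Ndufaf2 added in replicate 2 alone and Ndufa5 and Ndufb4 in replicate 1 alone. The median coding share was 89.6% by RSEM. The causes were not tested. No paired analysis was possible because there is 1 group. Depth limits the scarce paralogs, where 1 count decides a ratio.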

Other observations

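The symbol rule leaves out a pair of genes that are also respiratory chain subunits in mice by annotation or later naming. Usmg5, a small ATP synthase subunit, had 26.6 TPM in replicate 1 and 62.7 TPM in replicate 2, from 195 and 338 counts. Ndufb1-ps, whose symbol marks a pseudogene, had 13.4 and 28.9 TPM, from 132 and 243 counts. Both were higher in replicate 2 by TPM.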
